A study of Mus musculus with 8 samples.

Results

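The genes described here are 10 genes of the mammalian circadian clock, Clock, Npas2, Per1, Per2, Per3, Cry1, Cry2, Nr1d1, Nr1d2 and Dbp. They were chosen by symbol and matched to the Ensembl gene identifiers of the count tables, which list 55416 genes. All 10 were found, and all 10 were among the 18560 genes that passed a filter on low counts and were tested.

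The circadian clock is a feedback loop of transcription that runs in most cells of the body and keeps time with the light and dark cycle. Proteins made from Clock or its paralog Npas2 pair with BMAL1 and switch on genes that carry E-box sequences, among them the Per and Cry genes, whose products then hold the activators in check, while the nuclear receptors REV-ERB alpha (Nr1d1) and REV-ERB beta (Nr1d2) repress Bmal1 and Dbp is an output of the loop that acts through D-box sequences. In the lung, clock genes are known to shape the inflammatory response to bacterial products, and Per1 can also be switched on outside the loop, by glucocorticoids and by cAMP signalling.

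Gene expression was measured by RNA-seq in lung tissue from 8 female C57BL/6 mice (C57BL/6J in the methods of the study) aged 6 to 8 weeks. The 3 control mice (numbered 1, 2 and 4) were injected with the solvent DMSO and then with saline, and the 3 LPS mice (1, 6 and 7) were injected into the peritoneal cavity with lipopolysaccharide, an endotoxin of Gram-negative bacteria, at 35 mg/kg. The 2 dual-treatment mice (2 and 5) received YW3-56, an inhibitor of the peptidylarginine deiminases that convert arginine residues to citrulline, at 10 mg/kg and then the same dose of LPS 0.5 h later. Lungs were taken about 24 h after LPS. The comparisons ask how endotoxin shock changes lung transcripts and what YW3-56 given beforehand does to that change. In the survival experiment of the study, median survival was shorter than 24 h after LPS alone and longer than 24 h with YW3-56. LPS and dual-treatment mice could thus have been at different stages of illness at collection, which was not tested. YW3-56 was dissolved in DMSO, and no DMSO injection is described for the LPS mice. As described, dual treatment and LPS thus differed in the solvent as well as in the inhibitor. The hour of day of injection and of tissue collection, on which clock transcripts depend, is not given in the sources used here. No group received YW3-56 alone, so effects of the inhibitor on its own and on the response to LPS cannot be told apart. The numbers name mice within a group and pair none across groups. The methods of the study describe 3 mice per group for RNA-seq. Its figure legend and the deposited counts have 2 dual-treatment mice, and no reason is given.

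Total counts ran from 19061949 to 20908608 per library. Levels are given as CPM, counts scaled to a common library size with TMM factors, on which 1 count was worth between 0.0439 and 0.0593 CPM, so even Npas2, the lowest of the 10 genes, stood far above the level of single counts. Fold changes are log2 values with their standard error (SE) from edgeR's quasi-likelihood fit to all 8 libraries, adjusted p-values are Benjamini-Hochberg values over the 18560 genes tested, and a gene was called at an adjusted p under 0.05. Since lung tissue with its mixture of cell types was sequenced, fewer cells of a type and less RNA per cell cannot be told apart.

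The libraries carried the markers of lung. Sftpc, the surfactant protein of alveolar type 2 cells, ran from 8320 to 24500 CPM, Scgb1a1 of club cells from 22700 to 65300 CPM and Ager of alveolar type 1 cells from 979 to 2430 CPM. LPS mice 6 and 7 stood apart by transcripts that lung tissue has little of. The summed level of 8 squamous epithelium markers was 774 and 2090 CPM in these 2 libraries, with Krt13 at 286 and 887 CPM, and 2.02 to 24.5 CPM in the other 6. The summed level of 8 skeletal muscle markers was 480 and 1260 CPM in LPS mice 6 and 7, with Acta1 at 210 and 600 CPM, and 5.76 to 19.8 CPM in the other 6. LPS mouse 1 had neither, and the clock genes were also compared with LPS mouse 1 as the only LPS library.

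With LPS 9 of the 10 clock genes were called, in a comparison in which 66.5% of all genes tested were. Per1, Per2, Cry1, Cry2, Nr1d1 and Nr1d2, which encode repressors of the loop, rose, Clock, Npas2 and Per3 fell, and Dbp did not pass the test. These were 6 genes called higher, where 32.6% of all genes tested were, and 3 called lower, where 33.9% of all genes tested were. In 9 of the 10 the control and LPS mice did not overlap, against 72.0% of all genes tested. The median log2 fold change of the 10 was 0.85, with a range from -1.66 to 3.60, and that of all genes tested was -0.01.

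In the dual-treatment mice fewer clock genes differed from control. Per1 and Dbp were called higher, Clock and Npas2 lower, and 6 genes did not pass the test. Over all genes tested, 9.13% were called higher and 7.02% lower in this comparison. In 6 of the 10 genes the groups did not overlap, against 52.2% of all genes tested, and the median log2 fold change was 0.13 for the 10 and 0.00 for all genes tested.

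Set directly against LPS, dual treatment went with lower levels of the same 6 genes that LPS had raised. Per1, Per2, Cry1, Cry2, Nr1d1 and Nr1d2 were called lower, where 27.4% of all genes tested were, and Per3 and Dbp were called higher, where 31.7% of all genes tested were. Clock and Npas2 did not pass the test. In 9 of the 10 genes the groups did not overlap, against 70.8% of all genes tested, and the median log2 fold change was -0.80 for the 10 and 0.06 for all genes tested. Each group enters 2 of the 3 comparisons, so the comparisons share mice and their values are given side by side.

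**Figure D1:**
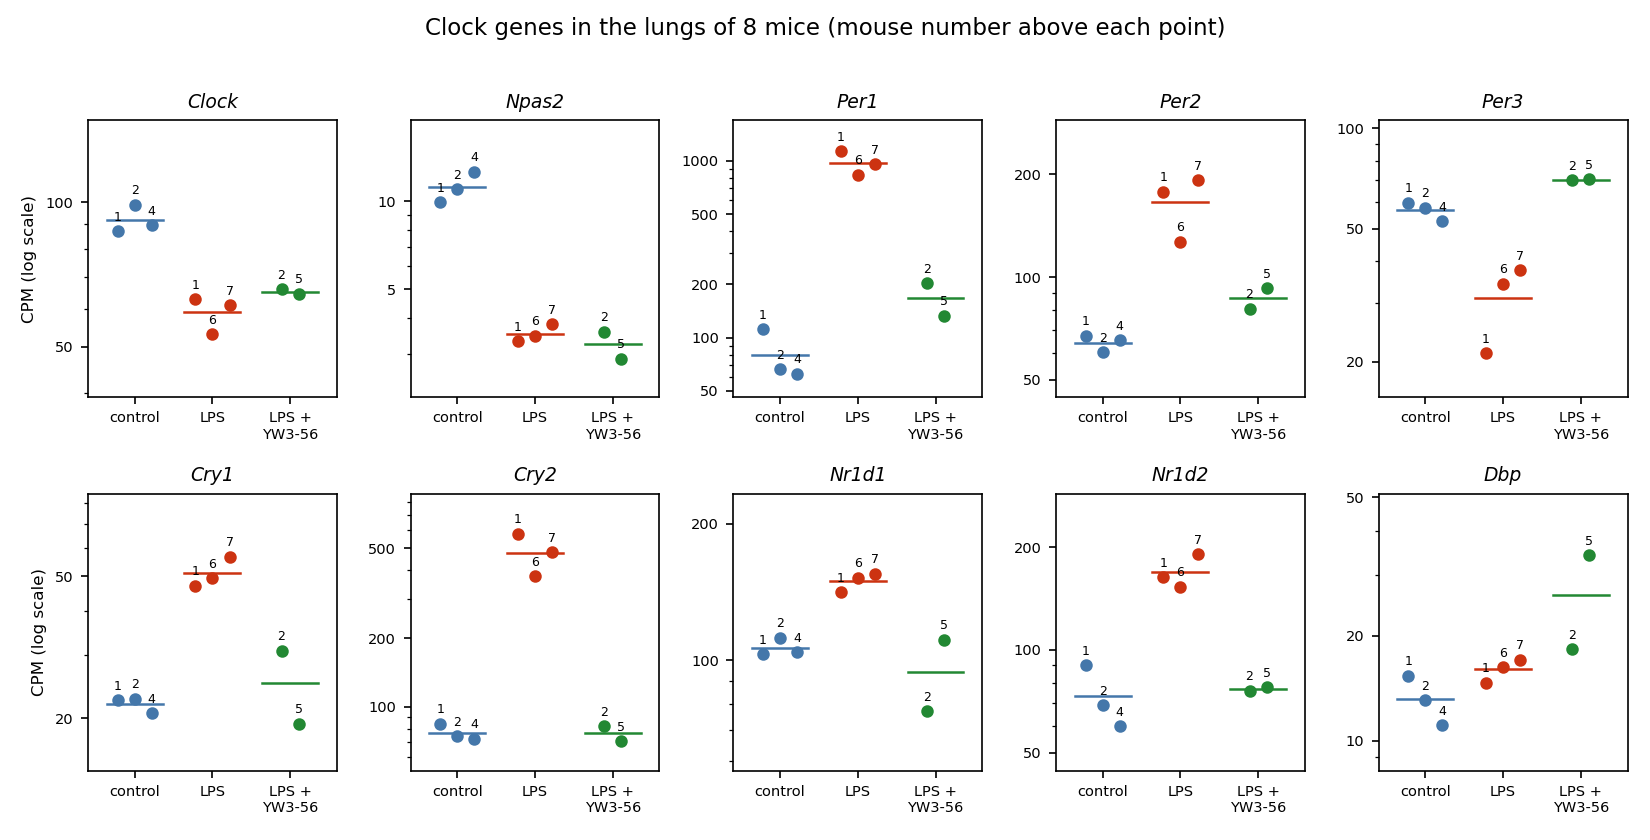
Level of each of the 10 clock genes in CPM (y axis, log scale, its range set per panel) in the control, LPS and dual-treatment mice (x axis); each point is 1 mouse with its number, and each line is the group mean. Cry2 lay at 377 to 579 CPM in the LPS mice and at 70.6 to 84.2 CPM in the other 5, whereas Npas2 was lower in all 5 treated mice than in the 3 controls.

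Of the activators, Clock (ENSMUSG00000029238, GRCm39 chr5:76342860-76452846, minus strand), which encodes the partner of BMAL1, stood at 87, 98.7 and 89.5 CPM in control mice 1, 2 and 4, at 62.8, 53.1 and 61.1 CPM in LPS mice 1, 6 and 7, and at 65.8 and 64.5 CPM in dual-treatment mice 2 and 5. All 5 treated mice lay below all 3 controls, and the dual-treatment pair lay just above the LPS mice. Clock fell with LPS by a log2 fold change of -0.64 (SE 0.095, edgeR adjusted p = 0.000263), which is a 1.56-fold lower level. With dual treatment it fell by a similar size, -0.49 against control (SE 0.107, edgeR adjusted p = 0.0139), a call that was lost without control mouse 2 (-0.44, edgeR adjusted p = 0.0609). Dual treatment and LPS differed by 0.14 with a 95% confidence interval from -0.09 to 0.38 (edgeR adjusted p = 0.265).

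Npas2 (ENSMUSG00000026077, chr1:39232705-39402323, plus strand), which encodes the paralog that can stand in for CLOCK, stood at 9.93, 11 and 12.6 CPM in the control mice, at 3.32, 3.47 and 3.8 CPM in the LPS mice and at 3.59 and 2.9 CPM in the dual-treatment mice. The 5 treated mice lay together, well below the controls. LPS lowered it 3.16-fold (log2 fold change -1.66, SE 0.185, edgeR adjusted p = 4.01e-05) and dual treatment 3.44-fold (log2 fold change -1.78, SE 0.213, edgeR adjusted p = 0.000753). Between dual treatment and LPS the difference was -0.12 with a 95% confidence interval from -0.60 to 0.35 (edgeR adjusted p = 0.635). Clock and Npas2 were called lower in both treated groups. Between the treated groups neither was called with TMM scaling, but with scaling by library size alone Clock was called higher with dual treatment (0.47, edgeR adjusted p = 0.00452) and the sign of Npas2 turned (0.20, edgeR adjusted p = 0.468).

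Among the Period genes, whose proteins are the inhibitory partners of the cryptochromes, Per1 (ENSMUSG00000020893, chr11:68986035-69002300, plus strand) changed most. Its level was 112, 66.2 and 62.5 CPM in the control mice, 1130, 833 and 955 CPM in the LPS mice and 203 and 133 CPM in the dual-treatment mice. The 3 groups did not overlap, and the dual-treatment mice lay between control and LPS, nearer to control. LPS raised Per1 12.1-fold (log2 fold change 3.60, SE 0.269, edgeR adjusted p = 3.92e-06). Dual treatment left it 5.8-fold below LPS (log2 fold change -2.53, SE 0.301, edgeR adjusted p = 0.000102) and 2.09-fold above control (log2 fold change 1.07, SE 0.269, edgeR adjusted p = 0.0263). The call against control rested on few mice. It was lost without control mouse 2 (0.94, edgeR adjusted p = 0.0971), without control mouse 4 (0.89, edgeR adjusted p = 0.0957) and without dual-treatment mouse 2 (0.70, edgeR adjusted p = 0.223).

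Per2 (ENSMUSG00000055866, chr1:91343700-91387069, minus strand) stood at 67.4, 60.2 and 65.3 CPM in the control mice, at 178, 127 and 192 CPM in the LPS mice and at 80.9 and 92.6 CPM in the dual-treatment mice. As for Per1, the groups did not overlap and dual treatment lay between, but the rise with LPS was smaller. It was 2.58-fold with LPS (log2 fold change 1.37, SE 0.15, edgeR adjusted p = 3.63e-05), and dual treatment lay 1.91-fold below LPS (log2 fold change -0.93, SE 0.169, edgeR adjusted p = 0.00119). Against control, dual treatment gave a log2 difference of 0.43 that missed the threshold (95% confidence interval from 0.07 to 0.80, edgeR adjusted p = 0.104). It passed when only the 2 groups compared were fitted (0.45, edgeR adjusted p = 0.0174) or when LPS mouse 6 was left out (0.43, edgeR adjusted p = 0.0289).

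Per3 (ENSMUSG00000028957, chr4:151081373-151129140, minus strand), a Period paralog that mice can lack and still keep time, moved the other way. Its level was 59.8, 57.8 and 52.8 CPM in the control mice, 21.2, 34.3 and 37.6 CPM in the LPS mice and 69.9 and 70.5 CPM in the dual-treatment mice. The LPS mice were lowest, without overlap, and the dual-treatment mice were the highest of all 8. Per3 fell with LPS (log2 fold change -0.87, SE 0.18, edgeR adjusted p = 0.00198) and was 2.26-fold higher with dual treatment than with LPS (log2 fold change 1.18, SE 0.196, edgeR adjusted p = 0.000739). With LPS mouse 1 as the only LPS library the fall came to -1.41 (edgeR adjusted p = 0.000106). Dual treatment against control gave 0.31, which did not pass the test in the fit of all 8 libraries (edgeR adjusted p = 0.331) but did when only those 2 groups were fitted (0.32, edgeR adjusted p = 0.0385).

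Of the cryptochromes, which bind the Period proteins and block the activators, Cry2 (ENSMUSG00000068742, chr2:92233894-92264474, minus strand) had the largest F statistic of the 10 genes over the 3 groups, 185. It stood at 84.2, 74 and 72.2 CPM in the control mice, at 579, 377 and 480 CPM in the LPS mice and at 81.9 and 70.6 CPM in the dual-treatment mice. The LPS mice were far above the other 5, among which control and dual-treatment mice overlapped. LPS raised Cry2 6.23-fold (log2 fold change 2.64, SE 0.165, edgeR adjusted p = 1.67e-06), and dual treatment lay 6.28-fold below LPS (log2 fold change -2.65, SE 0.193, edgeR adjusted p = 8.49e-06). Dual treatment and control differed by -0.01, with a 95% confidence interval from -0.40 to 0.38 (edgeR adjusted p = 0.979).

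Cry1 (ENSMUSG00000020038, chr10:84967560-85021252, minus strand), the stronger repressor of the pair, stood at 22.5, 22.7 and 20.7 CPM in the control mice, at 47, 49.3 and 56.6 CPM in the LPS mice and at 30.9 and 19.3 CPM in the dual-treatment mice. The LPS mice were highest without overlap, and of the dual-treatment mice 1 lay above and 1 below all 3 controls. Cry1 rose 2.32-fold with LPS (log2 fold change 1.22, SE 0.165, edgeR adjusted p = 0.000142) and was 2.03-fold lower with dual treatment than with LPS (log2 fold change -1.02, SE 0.187, edgeR adjusted p = 0.00126). Dual treatment against control gave 0.19 (95% confidence interval from -0.22 to 0.60, edgeR adjusted p = 0.523), and its sign turned without dual-treatment mouse 2 (-0.22, edgeR adjusted p = 0.498).

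The REV-ERB genes encode receptors for heme that repress transcription. Nr1d2 (ENSMUSG00000021775, chr14:4230545-4266624, plus strand) stood at 90.3, 68.9 and 59.8 CPM in the control mice, at 163, 153 and 191 CPM in the LPS mice and at 75.8 and 77.7 CPM in the dual-treatment mice. The dual-treatment values fell inside the control range, and the LPS values lay above both groups. Nr1d2 rose 2.32-fold with LPS (log2 fold change 1.21, SE 0.152, edgeR adjusted p = 8.66e-05), was 2.2-fold lower with dual treatment than with LPS (log2 fold change -1.14, SE 0.174, edgeR adjusted p = 0.00044), and differed by 0.07 between dual treatment and control (95% confidence interval from -0.30 to 0.45, edgeR adjusted p = 0.818).

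Nr1d1 (ENSMUSG00000020889, chr11:98658752-98666188, minus strand) moved less. Its level was 103, 112 and 104 CPM in the control mice, 141, 152 and 155 CPM in the LPS mice and 77.1 and 111 CPM in the dual-treatment mice. The LPS mice were highest without overlap, while dual-treatment mouse 5 lay among the controls and mouse 2 below them. Nr1d1 rose 1.4-fold with LPS (log2 fold change 0.49, SE 0.13, edgeR adjusted p = 0.00777) and was 1.59-fold lower with dual treatment than with LPS (log2 fold change -0.67, SE 0.147, edgeR adjusted p = 0.0036). With scaling by library size alone neither difference was called (0.21, edgeR adjusted p = 0.214, and -0.35, edgeR adjusted p = 0.0792), and the rise was not called with LPS mouse 1 as the only LPS library (0.41, edgeR adjusted p = 0.0962). Against control, dual treatment gave -0.18 (edgeR adjusted p = 0.45), and without dual-treatment mouse 5 it was called lower (-0.49, edgeR adjusted p = 0.0319).

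The value of Nr1d1 is also uncertain for its position. Of its exonic bases in the annotation, 1694 (52.3%) are shared with Thra, the gene of thyroid hormone receptor alpha on the opposite strand, and the strand setting of the counting is not given in the sources used here, so reads from the shared stretch cannot be told apart. Thra went the opposite way to Nr1d1 with LPS. It stood at 125, 135 and 142 CPM in the control mice, at 51.1, 48.8 and 49.9 CPM in the LPS mice and at 70.1 and 95.5 CPM in the dual-treatment mice (LPS against control, log2 fold change -1.43, SE 0.12, edgeR adjusted p = 7.55e-06). Smaller overlaps on opposite strands concern Dbp, which shares 15.5% of its exonic bases with Sphk2, and Clock, which shares 11.9% with Tmem165. Sphk2 fell with LPS (log2 fold change -0.39, SE 0.0953, edgeR adjusted p = 0.00543) and Tmem165 fell as well (-1.08, SE 0.116, edgeR adjusted p = 3.21e-05). With dual treatment Sphk2 (0.44, edgeR adjusted p = 0.00593) and Tmem165 (1.16, edgeR adjusted p = 6.27e-05) were higher than with LPS. Without dual-treatment mouse 5 that value of Sphk2 was 0.31. Against control, dual treatment gave 0.05 for Sphk2 and 0.08 for Tmem165, neither of them called. Cry2 shares 3.45% with the noncoding gene D930015M05Rik, which had 25 to 112 counts per library, and Per3 shares 1.47% with Uts2, which had 0 to 16. Noncoding genes on the opposite strand that the count tables do not list share 12.7% of the exonic bases of Npas2 (Gm53549), 4.36% of Per1 (Gm72400) and 4.28% of Per3 (Gm69183), and every other overlap was of 2.72% or less.

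Dbp (ENSMUSG00000059824, chr7:45354512-45359627, plus strand), the D-box activator at the output of the loop, stood at 15.4, 13.1 and 11.1 CPM in the control mice, at 14.7, 16.3 and 17.1 CPM in the LPS mice and at 18.3 and 34.1 CPM in the dual-treatment mice. Control and LPS mice overlapped, both dual-treatment mice lay above all 6 others, and dual-treatment mouse 5 stood alone at the top. LPS against control gave 0.28 (95% confidence interval from -0.22 to 0.78, edgeR adjusted p = 0.284). With dual treatment Dbp was higher than control (log2 fold change 0.99, SE 0.242, edgeR adjusted p = 0.023) and higher than LPS (0.71, SE 0.242, edgeR adjusted p = 0.0302). Both calls rested on dual-treatment mouse 5, since without it the log2 fold changes were 0.44 (edgeR adjusted p = 0.201) and 0.16 (edgeR adjusted p = 0.555). The call against control was also lost without control mouse 2 (0.98, edgeR adjusted p = 0.0736) or 4 (0.85, edgeR adjusted p = 0.0955), and that against LPS without LPS mouse 1 (0.64, edgeR adjusted p = 0.0735) or 6 (0.71, edgeR adjusted p = 0.0628), with LPS mouse 1 as the only LPS library (0.83, edgeR adjusted p = 0.0996) and with only the 2 groups fitted (0.69, edgeR adjusted p = 0.0586).

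**Figure D2:**
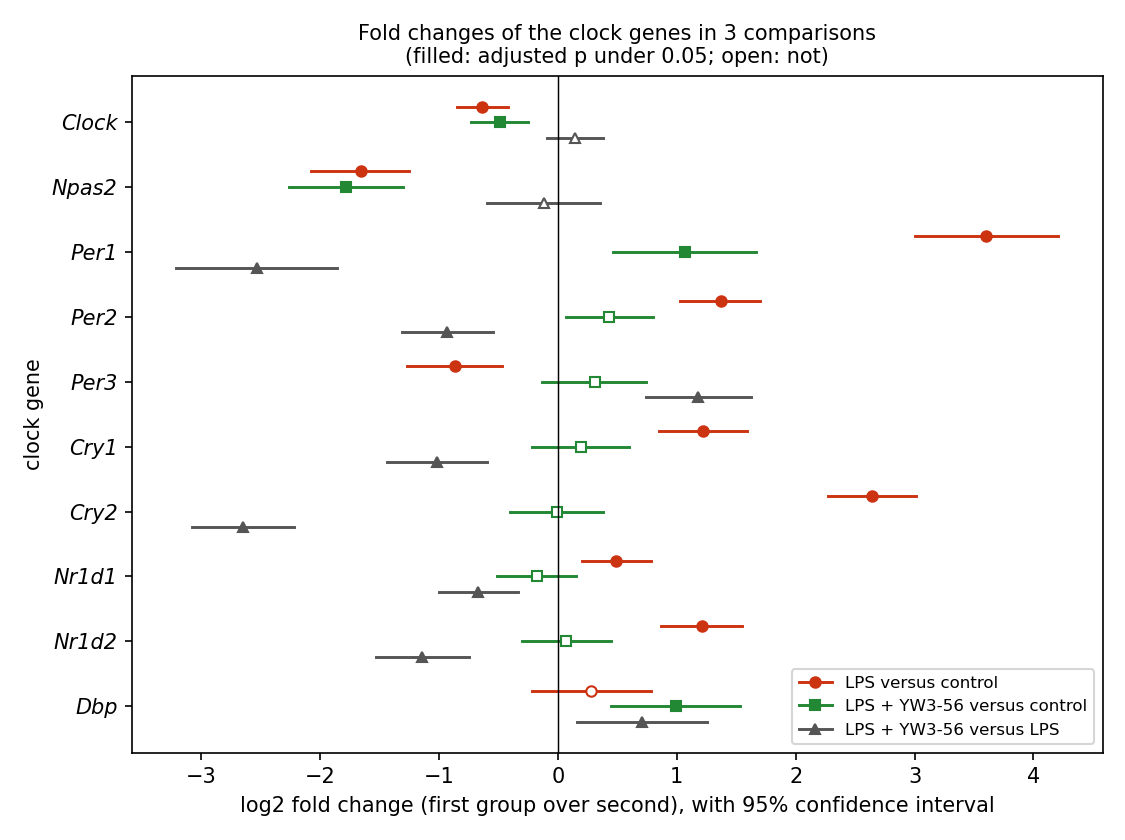
Log2 fold change (x axis, first group over second) of each clock gene (y axis) in the 3 comparisons; bars are 95% confidence intervals of the edgeR fit, filled symbols mark an adjusted p under 0.05 and open symbols one that missed it. With LPS, Per1 (3.60) and Cry2 (2.64) lie farthest to the right and Npas2 (-1.66) farthest to the left, and for Cry2 the value of dual treatment against control (-0.01) sits on the line of no change.

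Without LPS mice 6 and 7, 5 of the 6 rises and all 3 falls with LPS were still called, Nr1d1 being the gene lost, and all 6 genes called lower with dual treatment than with LPS were still called. Of all 19272 genes tested in that fit, 5222 were called higher and 5465 lower with LPS than control, and 4464 lower with dual treatment than LPS. The lone LPS library is then assumed to vary like the other groups. Cry2 was at 2.92 against control (edgeR adjusted p = 1.13e-05) and Per1 at 3.82 (edgeR adjusted p = 8.12e-05) in that fit.

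Markers of cell types of the lung moved with the groups too, and their part in the clock gene results was not tested. The marker counts here and in the next paragraph stand beside 32.6% of all genes tested called higher and 33.9% lower with LPS. These shares were 9.13% and 7.02% with dual treatment against control, and 31.7% and 27.4% with dual treatment against LPS. Some of the marker counts lie near them. All 10 neutrophil markers rose with LPS. Their summed level, in which S100a9 had the highest mean over the 8 libraries, was 333, 266 and 189 CPM in control mice 1, 2 and 4, 2740, 3580 and 2460 CPM in LPS mice 1, 6 and 7, and 2010 and 2500 CPM in dual-treatment mice 2 and 5, with none of the 10 at 0 in any library. With dual treatment 7 of the 10 were called higher than control, and against LPS 4 were called higher and 3 lower. The markers did not move as 1, since Camp averaged 5.2 CPM in the control, 46.3 CPM in the LPS and 5.94 CPM in the dual-treatment mice, and Ltf 95.8, 401 and 86.6 CPM. The 4 called higher with dual treatment than with LPS had their highest means there. In the same order of groups, Retnlg averaged 18.5, 85.7 and 241 CPM and Mmp8 4.01, 33.5 and 70.9 CPM. Cxcr2 averaged 4.74, 13.5 and 37.6 CPM and Csf3r 21.4, 42 and 86.7 CPM. Of 6 endothelial markers 4 fell with LPS, and the sum of the 6 was 2990, 3210 and 3330 CPM in the control, 1960, 1630 and 1570 CPM in the LPS and 3150 and 3210 CPM in the dual-treatment mice. With dual treatment Pecam1 was higher than control (0.60, edgeR adjusted p = 0.0143) and Kdr lower (-0.90, edgeR adjusted p = 0.00252). The other 4 endothelial markers were not called in that comparison. Of 5 club cell markers 3 rose and 1 fell with LPS, and their sum, nearly all of it Scgb1a1, was 31100, 39400 and 36600 CPM in the control, 68400, 58300 and 56600 CPM in the LPS and 24000 and 26500 CPM in the dual-treatment mice. No endothelial or club cell marker was at 0 in any library.

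In the dual-treatment mice all 5 erythroid markers were lower than control, with sums of 426 and 381 CPM against 1730, 3910 and 2780 CPM, as were 5 of 6 cardiac muscle markers, with sums of 222 and 221 CPM against 381, 1080 and 617 CPM. Macrophage markers were called higher for 3 of 8 and lower for 0, and 2 each of the alveolar type 1, club cell and smooth muscle markers were called lower than control. Set against LPS, where 6 clock genes were lower, dual treatment went with 5 macrophage and 4 endothelial markers called higher and with all 5 smooth muscle, all 5 erythroid, 4 cardiac muscle, 3 club cell and 3 ciliated cell markers called lower, as well as 6 squamous epithelium and 7 skeletal muscle markers. Other lists went both ways there. Alveolar type 1 markers had 2 higher and 2 lower, and alveolar type 2 markers 1 and 1. Lymphocyte and fibroblast markers each had 2 higher and 1 lower. With LPS, 4 of 6 alveolar type 2 markers, 2 of 6 alveolar type 1 markers, 2 of 8 macrophage markers and 2 of 6 lymphocyte markers fell, and 1 alveolar type 1 marker rose. Of 6 fibroblast markers 2 rose and 2 fell, of 5 ciliated cell markers 2 rose and 1 fell, and of 5 smooth muscle markers 1 rose.

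Levels of different genes were compared per length, as CPM per kilobase of annotated exon. In the control mice the order was Nr1d1 (mean 32.8), Per1 (10.5), Per2 (9.8), Cry2 (8.94), Nr1d2 (8.07), Per3 (5.41), Clock (5.32), Cry1 (4.41), Dbp (3.8) and Npas2 (2.04). Nr1d1 stood clear of the rest, whereas the values of Per1, Per2, Cry2 and Nr1d2 overlapped from each to the next, as did those of Per3 and Clock and of Cry1 and Dbp. With LPS the order became Per1 (127), Cry2 (55.7), Nr1d1 (46), Per2 (25.2), Nr1d2 (18.7), Cry1 (10.3), Dbp (4.62), Clock (3.42), Per3 (2.96) and Npas2 (0.644). Cry2 and Nr1d1, Per2 and Nr1d2, and Clock and Per3 overlapped between mice. In the dual-treatment mice Nr1d1 (29) and Per1 (21.9) came first and overlapped, Per2 (13.2) came next, and Cry2 (8.88), Nr1d2 (8.48), Dbp (7.54) and Per3 (6.69) overlapped from each to the next, followed by the means of Cry1 (5.04), Clock (3.78) and Npas2 (0.592). The values of Dbp there, from 5.27 to 9.82, also reached into those of Cry1, from 3.87 to 6.22.

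Mice of 1 group differed in some of these genes more than in most genes. The median coefficient of variation of the 10 clock genes was 7.54% in the control, 10.6% in the LPS and 12.8% in the dual-treatment mice, and that of the 11596 genes with at least the mean level of the lowest of the 10 was 6.73%, 12.1% and 9.05%. In the controls the highest was that of Per1, 34.3%, because of mouse 1. Mouse 1 was the highest control for 6 of the 10 genes, Per1, Per2, Per3, Cry2, Nr1d2 and Dbp. In the dual-treatment pair Dbp (42.6%), Cry1 (32.9%), Per1 (29.5%) and Nr1d1 (25.3%) varied most and Per3 (0.584%) least, with mouse 5 the higher for Dbp and Nr1d1 and mouse 2 for Cry1 and Per1.

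Ratios of a pair of genes inside 1 library do not depend on scaling between libraries, and they show which genes changed unequally. The log2 ratio of Per1 to Per2 was 0.73, 0.14 and -0.06 in the control mice, 2.67, 2.71 and 2.31 in the LPS mice and 1.33 and 0.52 in the dual-treatment mice. That of Per3 to Per2 was -0.17, -0.06 and -0.31 in the control mice, -3.06, -1.89 and -2.35 in the LPS mice and -0.21 and -0.39 in the dual-treatment mice. The Period genes thus stood in a different proportion in the LPS mice than in either other group. For Cry1 to Cry2 the log2 ratio was -1.90, -1.71 and -1.80 in the control mice, -3.62, -2.93 and -3.08 in the LPS mice and -1.40 and -1.87 in the dual-treatment mice, again with the LPS mice apart.

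The ratio of Npas2 to Clock followed another order. It was -3.13, -3.16 and -2.83 in the control mice, from -4.23 to -3.93 in the LPS mice and -4.19 and -4.47 in the dual-treatment mice, so that Npas2 had dropped more than Clock in both treated groups. The ratio of Dbp to Bmal1, an activator target set against an activator gene, was -0.84, -1.06 and -1.46 in the control mice, -1.43, -0.97 and -1.09 in the LPS mice, and 0.04 and 1.38 in the dual-treatment mice. Only in the dual-treatment mice did counts of Dbp reach those of Bmal1 among these 8 libraries. Means of Nr1d1 to Nr1d2 were 0.56 in the control, -0.18 in the LPS and 0.27 in the dual-treatment mice. An exact two-sided permutation test cannot go below p = 0.1 with these group sizes, and over the 21 ratio comparisons the adjusted p of those that reached it was 0.162, so the ratios are descriptions.

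Other transcription factors of the clock were taken from a list of 10, of which 9 passed the filter and Rorb did not. With LPS 5 were called higher, 2 lower and 2 not, with a median log2 fold change of 0.47. Dual treatment against control gave 0 higher and 3 lower, and against LPS 1 higher and 6 lower, with medians of -0.23 and -1.02. The counts of this list and of those below stand beside 32.6% higher and 33.9% lower of all genes tested with LPS, 9.13% and 7.02% with dual treatment against control, and 31.7% and 27.4% with dual treatment against LPS.

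Nfil3, a repressor that competes with DBP for D-boxes, stood at 10.8, 11.6 and 12.6 CPM in the control mice, at 266, 153 and 176 CPM in the LPS mice and at 14.3 and 11.8 CPM in the dual-treatment mice. It rose with LPS by 4.09 (SE 0.215, edgeR adjusted p = 8.24e-07), lay lower by -3.93 with dual treatment than with LPS (SE 0.252, edgeR adjusted p = 5.51e-06), and its dual-treatment values overlapped control. Bhlhe40, whose product DEC1 represses through E-boxes, went the same way, with 55.2, 49.4 and 57.4 CPM in the control, 427, 317 and 324 CPM in the LPS and 51.9 and 78.6 CPM in the dual-treatment mice (LPS against control 2.72, SE 0.181, edgeR adjusted p = 2.21e-06). Its paralog Bhlhe41 rose by 0.93 (SE 0.201, edgeR adjusted p = 0.00248). Hlf and Tef, which like Dbp encode D-box activators, fell with LPS by -1.42 (SE 0.239, edgeR adjusted p = 0.000573) and -0.51 (SE 0.151, edgeR adjusted p = 0.0142), the latter not without control mouse 1 (-0.36, edgeR adjusted p = 0.0615). With dual treatment Hlf was higher than with LPS by 1.11 (SE 0.26, edgeR adjusted p = 0.00512).

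Bmal1, the partner of CLOCK and NPAS2, differed in another way. It stood at 27.6, 27.3 and 30.6 CPM in the control mice, at 39.6, 32 and 36.5 CPM in the LPS mice and at 17.8 and 13 CPM in the dual-treatment mice. The groups did not overlap, with the LPS mice above and the dual-treatment mice below the controls. LPS against control gave 0.34 (SE 0.137, edgeR adjusted p = 0.051), just short of the threshold, and DESeq2 put it just past (0.38, DESeq2 adjusted p = 0.03). With dual treatment Bmal1 was lower than control by -0.89 (SE 0.159, edgeR adjusted p = 0.00594) and lower than LPS by -1.22 (SE 0.16, edgeR adjusted p = 0.000179).

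Rora, a receptor that activates Bmal1, had the same order, at 60.3, 56.7 and 53.8 CPM in the control, 78.5, 74.8 and 92 CPM in the LPS and 37.7 and 39.9 CPM in the dual-treatment mice. It was called higher with LPS (0.52, SE 0.101, edgeR adjusted p = 0.00129) and lower with dual treatment than control (-0.55, SE 0.115, edgeR adjusted p = 0.0115), the latter not without dual-treatment mouse 2 (-0.54, edgeR adjusted p = 0.0688). Ciart, which encodes an inhibitor of the BMAL1 complex, was at 17.9 to 19 CPM in the control, 24.3 to 28.7 CPM in the LPS and 11 and 14.4 CPM in the dual-treatment mice. Ciart was called higher with LPS (0.47, SE 0.132, edgeR adjusted p = 0.0101) and lower with dual treatment than control (-0.55, SE 0.15, edgeR adjusted p = 0.0358), a call lost without any 1 of the 3 controls (-0.54, -0.58 and -0.57) or without dual-treatment mouse 2 (-0.40). With scaling by library size alone the rises of Rora (0.24) and Ciart (0.18) were not called.

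**Figure D3:**
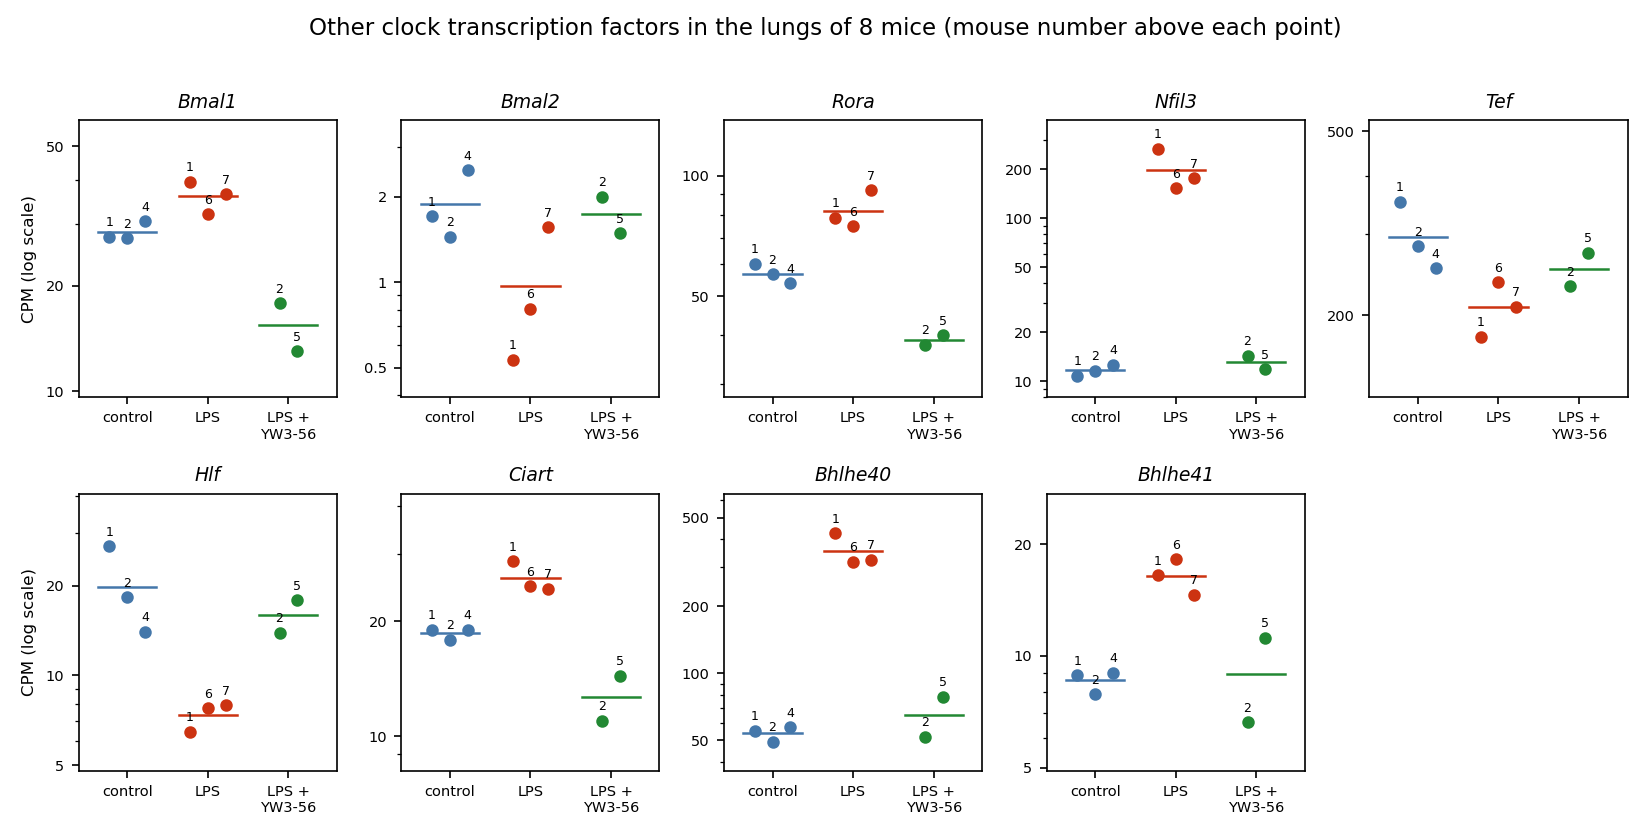
Level in CPM (y axis, log scale, its range set per panel) of the 9 other clock transcription factors that were tested, in the control, LPS and dual-treatment mice (x axis); each point is 1 mouse with its number, and each line is the group mean. Bmal1 is lowest in the dual-treatment mice (17.8 and 13 CPM), and Nfil3 is at 153 to 266 CPM in the LPS mice and at 10.8 to 14.3 CPM in the other 5.

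All 10 genes listed as modifiers of clock proteins were tested. With LPS 4 were called higher and 2 lower, with dual treatment against control 0 higher and 1 lower, and against LPS 2 higher and 5 lower. Casein kinase 1 delta (Csnk1d), which marks Period proteins for degradation, rose by 0.91 with LPS (SE 0.124, edgeR adjusted p = 0.000146). The paired F-box genes that recognise phosphorylated substrates went apart, Btrc falling (-1.12, SE 0.172, edgeR adjusted p = 0.00031) and Fbxw11 rising (0.99, SE 0.114, edgeR adjusted p = 4.72e-05). Timeless rose 2.82-fold (edgeR adjusted p = 1.06e-05). Gsk3b rose by 0.49 (SE 0.0847, edgeR adjusted p = 0.000664), which was not called with scaling by library size alone (0.21), and Csnk2a1 fell by -0.57 (SE 0.0898, edgeR adjusted p = 0.000389). The gene lower with dual treatment than control was Csnk1e (-0.37, SE 0.0909, edgeR adjusted p = 0.0246), a call lost without any 1 control or dual-treatment mouse (-0.35 to -0.43). Its call against LPS (-0.25, SE 0.0907, edgeR adjusted p = 0.0401) was lost in 9 alternatives, and with scaling by library size alone its sign turned (0.08). With dual treatment Fbxw11, Timeless and Csnk1d were at -0.01, -0.10 and -0.06 against control, and none of the 3 passed the test there.

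Of 8 genes listed as rhythmic outputs 7 were called higher with LPS and 0 lower, with a median log2 fold change of 1.11. The rise of Wee1 (0.46, SE 0.171, edgeR adjusted p = 0.038) was lost in several alternatives, such as without LPS mouse 1 (0.39). Against LPS, dual treatment lowered 4 and raised 0. Against control, dual treatment raised 2, Nampt and Tspan4, with a median of 0.21. Nampt, the rate-limiting enzyme of NAD salvage and an E-box target, stood at 80.3, 84.8 and 72.8 CPM in the control, 664, 548 and 474 CPM in the LPS and 183 and 98.9 CPM in the dual-treatment mice. It rose with LPS by 2.83 (SE 0.226, edgeR adjusted p = 5.61e-06). Its call with dual treatment against control (0.83, SE 0.234, edgeR adjusted p = 0.0407) was lost without dual-treatment mouse 2 (0.29, edgeR adjusted p = 0.41), LPS mouse 6 (0.83, edgeR adjusted p = 0.0549) or any 1 control (0.84, 0.88 and 0.75), and that of Tspan4 (0.62, SE 0.172, edgeR adjusted p = 0.0392) without dual-treatment mouse 2 (0.34), control mouse 2 (0.62, edgeR adjusted p = 0.104) or control mouse 4 (0.48). Cdkn1a rose by 3.23 (SE 0.244, edgeR adjusted p = 4.2e-06) and Por by 2.11 (SE 0.202, edgeR adjusted p = 1.6e-05) with LPS, and neither was called between dual treatment and control in the main fit. The value of Por there, 0.32, came to 0.64 without dual-treatment mouse 5.

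Genes that respond to the inputs of Per1 were listed as well. All 6 glucocorticoid targets rose with LPS, and 4 were lower with dual treatment than with LPS. Klf9 (1.21, SE 0.126, edgeR adjusted p = 2.69e-05) and Tsc22d3 (0.66, SE 0.196, edgeR adjusted p = 0.0143), which are also in the list of outputs, were among the 6. The rises of Tsc22d3 and Zbtb16 (0.77, SE 0.279, edgeR adjusted p = 0.0329) were weak and were lost with LPS mouse 1 as the only LPS library (0.39 and 0.81), with scaling by library size alone (0.38 and 0.49) and without control mouse 2 (0.54 and 0.68), among other settings. Fkbp5 stayed high with dual treatment. It stood at 99.7, 66.5 and 70.4 CPM in the control, 253, 321 and 245 CPM in the LPS and 282 and 174 CPM in the dual-treatment mice (dual treatment against control 1.53, SE 0.233, edgeR adjusted p = 0.00263), whereas Dusp1, at 0.32, did not pass that test. Sgk1 just missed it (0.61, SE 0.184, edgeR adjusted p = 0.0517) and passed in several alternatives, DESeq2 among them (0.59, DESeq2 adjusted p = 0.0139). Zbtb16 lay the other way against control and was not called (-0.69, edgeR adjusted p = 0.177). It was called lower with no filter on low counts (-0.69, edgeR adjusted p = 0.0222) and came to -1.50 without dual-treatment mouse 2. Of 8 CREB and immediate early genes 6 (Fos, Jun, Junb, Egr1, Nr4a1 and Atf3) rose with LPS, and these and Fosb were lower with dual treatment than with LPS, though the calls of Fosb (-1.12) without dual-treatment mouse 2 and of Egr1 (-1.73) without mouse 5 were lost. Fos rose by 2.82 (SE 0.394, edgeR adjusted p = 0.00017) and Nr4a1 by 2.87 (SE 0.35, edgeR adjusted p = 7.19e-05), with LPS mouse 1 (350 and 605 CPM) far above LPS mice 6 (109 and 269 CPM) and 7 (159 and 298 CPM). Against control, dual treatment gave 0.77 for Junb (edgeR adjusted p = 0.0694) and 1.07 for Nr4a1 (edgeR adjusted p = 0.0751), which were called in 7 and 6 alternatives. Atf3 (-0.76, edgeR adjusted p = 0.169) and Jun (-0.40, edgeR adjusted p = 0.186) went the other way. Both were called lower in some alternatives, such as with only the 2 groups compared (-0.75 and -0.39). Fosb, which was not called with LPS in the main fit (-0.56), was lower with dual treatment than control (-1.98, SE 0.401, edgeR adjusted p = 0.0104), though not without dual-treatment mouse 2 (-1.70). With LPS it was called lower without LPS mouse 1 (-1.04, edgeR adjusted p = 0.00597) and with scaling by library size alone (-0.87, edgeR adjusted p = 0.0266). The part of these inputs in the levels of Per1 was not tested.

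The genes whose pattern over the 8 libraries was nearest to that of Cry2, by Euclidean distance of centred log2 CPM over 18559 other genes, were Trp53i11 (distance 0.284), Sphk1 (0.292), Rel (0.303), Sema4c (0.381) and Gm42636 (0.439). Trp53i11 stood at 38.4, 37.5 and 34.1 CPM in the control, 281, 215 and 221 CPM in the LPS and 37.9 and 34.1 CPM in the dual-treatment mice. Rel, which encodes a subunit of NF-kappa B, was at 17.4, 17.3 and 16.7 CPM in the control, 145, 91.9 and 100 CPM in the LPS and 16.7 and 14.9 CPM in the dual-treatment mice. In both, as in Cry2, the LPS mice stood far above the rest and the dual-treatment mice lay close to the controls. The likeness follows from choosing these genes by their nearness to Cry2.

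The promoters of the clock genes were searched for the sequences on which the loop acts. RefSeq promoter windows (GRCm38.p6, 250 bases before to 50 after the start of transcription) were matched for 9 of the 10 genes, 12 windows in all, and Per2 had none. On both strands, the E-box CACGTG was found in the windows of Per1 and Cry1 and in 7.15% of all 32851 windows, and its variant CACGTT in those of Cry1, Cry2 and Nr1d1 and in 4.68%. The D-box TTATGTAA occurred in the window of Per3, at 2 places, and in 0.938% of all windows. Neither the ROR/REV-ERB element, searched as TAGGTCA or TGGGTCA (6.45% of all windows), nor the cAMP element TGACGTCA (1.79%) was in any of the 12. The same genes held each motif when only the 250 bases before the start were searched. The windows with a match are printed 5′ to 3′ on the strand of the gene with the matches in capitals, first for 4 genes that rose with LPS, Per1 (chr11:69098699-69098998, plus strand, E-box from position -166 to the start), Cry1 (chr10:85185005-85185304, minus strand, variant from -79 and E-box from -60), Cry2 (chr2:92434020-92434319, minus strand, variant from -166) and Nr1d1 (chr11:98775328-98775627, minus strand, variant from -28), and then for Per3 (chr4:151044616-151044915, minus strand, D-boxes from -205 and -158), which fell. The variant reads AACGTG where it lies on the opposite strand.
Per1: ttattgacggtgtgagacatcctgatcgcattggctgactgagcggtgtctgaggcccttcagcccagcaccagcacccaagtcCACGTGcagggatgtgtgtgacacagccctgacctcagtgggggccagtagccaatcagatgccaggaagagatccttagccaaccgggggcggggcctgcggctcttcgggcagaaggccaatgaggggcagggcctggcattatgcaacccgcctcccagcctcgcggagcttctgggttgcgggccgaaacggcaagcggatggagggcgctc
Cry1: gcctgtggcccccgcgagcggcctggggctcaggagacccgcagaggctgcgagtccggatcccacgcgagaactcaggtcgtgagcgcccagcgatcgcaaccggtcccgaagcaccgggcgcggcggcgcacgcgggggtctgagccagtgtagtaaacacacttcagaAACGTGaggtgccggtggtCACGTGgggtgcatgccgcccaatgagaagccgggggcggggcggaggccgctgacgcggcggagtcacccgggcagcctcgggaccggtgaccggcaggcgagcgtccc
Cry2: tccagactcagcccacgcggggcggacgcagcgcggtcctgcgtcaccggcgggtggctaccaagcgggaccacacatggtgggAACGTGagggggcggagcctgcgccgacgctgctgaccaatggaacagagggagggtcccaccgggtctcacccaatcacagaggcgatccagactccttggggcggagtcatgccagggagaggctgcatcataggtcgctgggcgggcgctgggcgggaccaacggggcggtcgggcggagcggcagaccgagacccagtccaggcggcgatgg
Nr1d1: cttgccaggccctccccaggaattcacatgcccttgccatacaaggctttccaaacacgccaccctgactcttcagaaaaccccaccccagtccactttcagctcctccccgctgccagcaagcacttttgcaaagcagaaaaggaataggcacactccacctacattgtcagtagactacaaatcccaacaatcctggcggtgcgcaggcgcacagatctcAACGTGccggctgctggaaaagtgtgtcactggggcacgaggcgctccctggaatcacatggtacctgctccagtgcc
Per3: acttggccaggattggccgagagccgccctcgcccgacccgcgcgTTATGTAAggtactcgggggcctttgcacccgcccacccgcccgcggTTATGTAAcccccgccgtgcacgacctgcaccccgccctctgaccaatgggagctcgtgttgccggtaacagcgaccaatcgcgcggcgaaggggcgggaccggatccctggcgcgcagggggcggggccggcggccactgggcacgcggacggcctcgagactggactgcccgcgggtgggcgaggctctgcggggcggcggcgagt
A match is a string of letters, and binding was not measured.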

How the data were processed

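The authors checked and trimmed the reads with FastQC 0.11.9 and Trim Galore, aligned them to GRCm39 with HISAT2 2.2.1, counted them per gene with featureCounts 2.0.1 and deposited raw counts for each of the 8 mice, without normalization. The annotation release, the strand setting and the treatment of reads with several alignments are not given in the sources used here. Gene symbols, positions and exonic lengths were taken from GENCODE M39. Differences were tested by edgeR 4.0.16 under R 4.3.3 (filterByExpr by group, TMM scaling, glmQLFit and glmQLFTest on all 8 libraries with 1 factor for group, no covariate, 5 residual degrees of freedom), with Benjamini-Hochberg adjustment over 18560 genes. The p-values set differences between groups against the spread between mice, estimated from all 8 libraries. They do not cover anything that all mice of a group share. Log2 ratios within a library used counts with a prior of 0.5. The method was run on simulated data in which few genes changed, as many up as down. That run does not cover scaling where most genes change. Alternatives were DESeq2 1.42.0, other scaling, filters and call rules, only the groups compared, and leaving out mice. The clock genes and all gene lists were chosen with earlier results of these data known, and the lists of other clock transcription factors and modifiers were shortened after the fit. Genes named are the 10 clock genes, genes of the clock, modifier, output and input lists that were called in at least 1 comparison, Rorb, markers of some cell types, genes annotated over a clock gene and the 5 genes nearest to Cry2. Ppargc1a, Usp2, Csnk2b, Fbxl21, Bmal2 and Crem were tested and not called in the main fit.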

Additional observations from a re-analysis of the deposited data

How the results depend on the processing

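The calls of the 10 clock genes in all 3 comparisons were the same with DESeq2, relative log expression scaling, no filter on low counts and a minimum of 10 counts in every library. Scaling by library size alone moved the median log2 fold change of all genes to -0.29 for LPS against control and 0.38 for dual treatment against LPS. The calls over all genes then split into 4336 higher and 7832 lower in the first, where TMM scaling gave 6046 and 6300, and into 7889 and 3225 in the second, where TMM gave 5875 and 5085. In that scaling Nr1d1 was not called with LPS (0.21) or between dual treatment and LPS (-0.35), Clock was called between dual treatment and LPS (0.47), and the signs of Npas2 between dual treatment and LPS (0.20) and of Cry2 between dual treatment and control (0.03) turned, neither of them called. With only the 2 groups fitted Cry2 between dual treatment and control was 0.00, also without a call.

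With the cut of the study, more than 2-fold at a p below 0.05, read here as a p before adjustment and applied to the edgeR values, 5 clock genes were higher and 1 lower with LPS than control, 1 higher and 1 lower with dual treatment than control, and 1 higher and 4 lower with dual treatment than LPS. Of all genes tested, 18.3% were higher and 21.8% lower in the first comparison by that cut, 7.04% and 3.43% in the second and 20.6% and 14.7% in the third. At an adjusted p under 0.01, 0 were higher and 1 lower with dual treatment than control (4.34% and 2.11% of all genes tested), and 1 was higher with dual treatment than LPS (23.6%). With only the 2 groups fitted 4 were higher with dual treatment than control (2100 of all 17640 genes tested) and 1 was higher with dual treatment than LPS (4864 of 17893), and without LPS mice 6 and 7 the last count was also 1 (4996 of 19272) and Per2 was called higher with dual treatment than control (0.43).

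Leaving out each mouse in turn, the number called higher with dual treatment than control ran from 0 to 3 and the number called lower from 1 to 3, and the number higher with dual treatment than LPS from 1 to 2. Over all genes tested the same counts ran from 790 to 1946, from 430 to 1655 and from 4619 to 5696. The log2 fold change of dual treatment against control ran from -0.22 to 0.47 for Cry1, from -0.15 to 0.06 for Cry2, from -0.49 to 0.03 for Nr1d1 and from -0.08 to 0.25 for Nr1d2. The cause of these changes was not tested. No paired analysis was possible because the groups share fewer than 2 mouse numbers and the numbers name different mice. With 2 dual-treatment mice, small differences from control could be missed. All 10 genes passed the filter, and depth was not varied.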
